A study of Mus musculus with 2 samples.

Results

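The peaks described here lie between genes, carry no annotated repeat and sit within 100 kb of the gene they were assigned to. They were chosen from the columns of the deposited peak table for repeat class (none named), location class (intergenic) and the distance to the start or end of the assigned gene. The rule took 1262 of 8226 peaks (15.3%), of which 707 lay upstream and 555 downstream by the strand of that gene. No measured height entered the rule. The peaks came from a DamID experiment, in which a protein of interest is fused to Dam, a bacterial enzyme that methylates adenine in GATC. Dam without a partner marks DNA that is accessible and serves as the background. Embryos injected with a Dnmt1-V5-Dam construct (Dnmt1-Dam below) were set against embryos injected with Dam alone (Dam-only below). In both groups zygotes came from BCF1 (C57BL/6 x CBA/CA) mice, superovulated at 5 weeks of age and mated, and were cultured to the 4- to 8-cell stage, and 50 embryos were harvested per construct. The fusion protein was supplied by injection beside the embryo's own Dnmt1, embryos were not kept apart, and each group is 1 library. No difference between the libraries has a replicate check.

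Dnmt1 is the maintenance DNA methyltransferase: it copies CpG methylation onto the new strand after replication. In cleavage-stage embryos it is known for keeping methylation at imprinted genes and at many retroelements while much of the genome loses it. The single-copy DNA that flanks genes holds many of their distal regulatory elements, such as enhancers and insulators, and some CpG islands away from known gene starts. CpG islands are stretches rich in CpG that are mostly unmethylated. The deposited table names their surroundings shores (adjacent) and shelves (farther out).

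In the deposited table each peak is 1 position on a grid of 10 bp in mm9 coordinates, with a whole-number height in each library, and no source used here gives a library's total reads. The depth is therefore unknown. The rule for listing a peak is not known, but the smallest Dnmt1-Dam excess over Dam-only in the table was 6 and the smallest ratio 2. A higher Dnmt1-Dam height is thus common to all listed peaks and is not given as a result. Intervals in brackets after a share are exact Clopper-Pearson intervals at 95%. They cover counting error only, and they treat neighboring peaks as independent.

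Heights of the flanking repeat-free peaks were mostly low. The median was 9 in the Dnmt1-Dam library (interquartile range 7 to 11, highest 66), against 1 in the Dam-only library (interquartile range 1 to 1.75, highest 12). The smallest listed Dnmt1-Dam height, 7, was found at 342 of them (27.1%). At the upper end 114 reached 15 or more (9.03%, 7.51 to 10.8), where 8.66% of all listed peaks did. Dnmt1-Dam was 10 or more times as high as Dam-only at 304 (24.1%, 21.8 to 26.5), against a background of 23.4% among all listed peaks. Both shares lay near their background.

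The highest upstream peaks were a pair near Wnt3, a secreted Wnt ligand that is needed to form the primitive streak. They lay on chromosome 11 at positions 103623981 and 103623881, 11.6 and 11.7 kb upstream of the gene. Their heights were 63 and 62 in Dnmt1-Dam, against 1 and 2 in Dam-only. The peak next in height lay 10.4 kb upstream of Usp38, a ubiquitin-specific peptidase gene (chromosome 8, position 83549181), with 47 in Dnmt1-Dam against 1 in Dam-only. Ncam1, which encodes a neural cell adhesion molecule, had a peak 34.3 kb upstream (chromosome 9, position 49641451) of 46 in Dnmt1-Dam against 2 in Dam-only.

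Lower in height came peaks both near to and far from their genes. At Scrg1, a gene found through its response to scrapie, a peak 67.1 kb upstream had 35 in Dnmt1-Dam against 1 in Dam-only. A run of 4 peaks stood 24.3 to 24.7 kb upstream of Nxpe4, named D930028F11Rik in the file. Its 4 heights spanned 10 to 34 in Dnmt1-Dam, against 1 at each of them in Dam-only. Osr1, a zinc finger gene of kidney and heart development, had 31 in Dnmt1-Dam against 12 in Dam-only, 80.2 kb upstream (chromosome 12, position 9501091). That Dam-only height was the highest of all the flanking repeat-free peaks. Dync1h1, the heavy chain of cytoplasmic dynein, followed with 28 in Dnmt1-Dam against 1 in Dam-only at 11.7 kb.

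Downstream, the highest peak lay 44.4 kb past the end of Bcas1, a gene expressed in oligodendrocytes, in the shore of a CpG island (chromosome 2, position 170128281). It had 66 in Dnmt1-Dam against 1 in Dam-only. Sox6, a transcription factor gene of cartilage and red cell development, had a peak 27.8 kb past its end (chromosome 7, position 122587101) of 41 in Dnmt1-Dam against 1 in Dam-only. Because Sox6 is long, that peak was 551 kb from the gene's start. Abo, the blood group glycosyltransferase gene, had a shore peak of 35 in Dnmt1-Dam against 2 in Dam-only at 55.7 kb (chromosome 2, position 26642341).

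The remaining high downstream peaks ranged from 20 to 29 in Dnmt1-Dam. The one at Crlf3 (29 in Dnmt1-Dam, 5 in Dam-only) lay 2.92 kb past the gene, and the one at Coch, which encodes an extracellular matrix protein of the inner ear (23 in Dnmt1-Dam, 3 in Dam-only), lay 0.501 kb past it. Cenpf, a kinetochore protein gene, had 27 in Dnmt1-Dam against 1 in Dam-only at 52.4 kb. Mphosph10, whose product takes part in ribosomal RNA processing, had 25 in Dnmt1-Dam against 1 in Dam-only at 16.1 kb. Tdgf1, the co-receptor of Nodal, is a gene of the early embryo, and its peak 23.1 kb past the end had 22 in Dnmt1-Dam against 2 in Dam-only. Pdgfra, a receptor of primitive endoderm, had 21 in Dnmt1-Dam against 1 in Dam-only at 93.8 kb. Cops7b, a subunit of the COP9 signalosome, had 20 in Dnmt1-Dam against 2 in Dam-only at 9.66 kb. Since neither the scaling of heights nor the treatment of PCR duplicates is known, the order of single peaks is a description of these libraries.

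**Figure D1:**
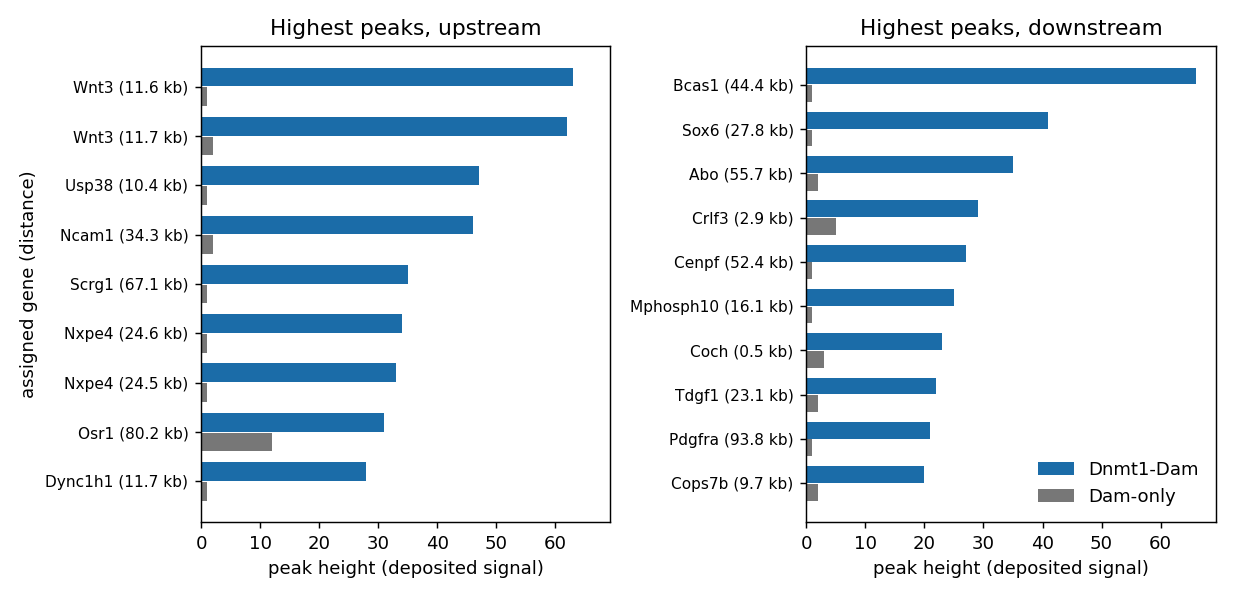
Heights (deposited signal, no unit) of the highest repeat-free intergenic peaks reported upstream (left) and downstream (right) of the assigned gene, with the Dnmt1-Dam library above the Dam-only library in each pair of bars and the distance to the gene in brackets. Dnmt1-Dam heights run from 28 to 63 upstream and from 20 to 66 downstream, and Osr1 has the highest Dam-only bar at 12.

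Most of the flanking peaks were at the floor of the Dam-only library. Dam-only was 1 at 946 of the 1262 peaks (74.96%, 72.5 to 77.3), near the 75.8% of all listed peaks, 2 at 153, 3 at 77 and 5 or more at 46 (3.65%, 2.68 to 4.83). The median Dnmt1-Dam height was 8 where Dam-only was 1 and 12 where it was 5. All 342 peaks of Dnmt1-Dam height 7 had a Dam-only height of 1, since no listed excess was under 6, so the heights of the libraries are tied within the list. Across the 1262 peaks Spearman's rho of the heights was 0.42, a description that includes this tie. Besides Osr1, 3 peaks had a Dam-only height of 8 or more, chosen after their values were seen. Cstb, a protease inhibitor gene, had 20 in Dnmt1-Dam against 10 in Dam-only. Phtf1 had 20 in Dnmt1-Dam against 9 in Dam-only, and Fam43a, named BC022623 in the file, had 18 in Dnmt1-Dam against 8 in Dam-only. Each of those 3 lay downstream and close to the gene, at 4.604, 7.19 and 5.58 kb.

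No difference in height was shown between upstream and downstream peaks. A height of 15 or more was reached by 9.62% upstream and 8.29% downstream, a difference of 1.33 percentage points (Newcombe interval at 95%, -1.92 to 4.46). Dam-only was 1 at 74.4% upstream and 75.7% downstream, a difference of -1.28 points (-6.03 to 3.57). Within the 100 kb, Spearman's rho of Dnmt1-Dam height with distance to the gene was -0.037 over the 1262 peaks, which share their 2 libraries.

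Listed peaks thinned out with distance on both sides. How much intergenic DNA lies at each distance from its assigned gene was not counted, so no density is given. The promoter classes of the table take up the first 10 kb upstream, so no intergenic peak can lie there. From 10 to 20 kb there were 181 upstream and 96 downstream, from 40 to 50 kb 73 upstream and 45 downstream, and from 90 to 100 kb 24 upstream and 22 downstream. The first 10 kb downstream held 163. From 10 kb outwards, 65.7% (62.8 to 68.5) of the peaks lay within 50 kb of the gene. Intergenic peaks that carry a repeat fell off much alike: 68.3% upstream and 67.1% downstream lay within 50 kb, against 67.6% and 62.2% of the repeat-free ones.

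**Figure D2:**
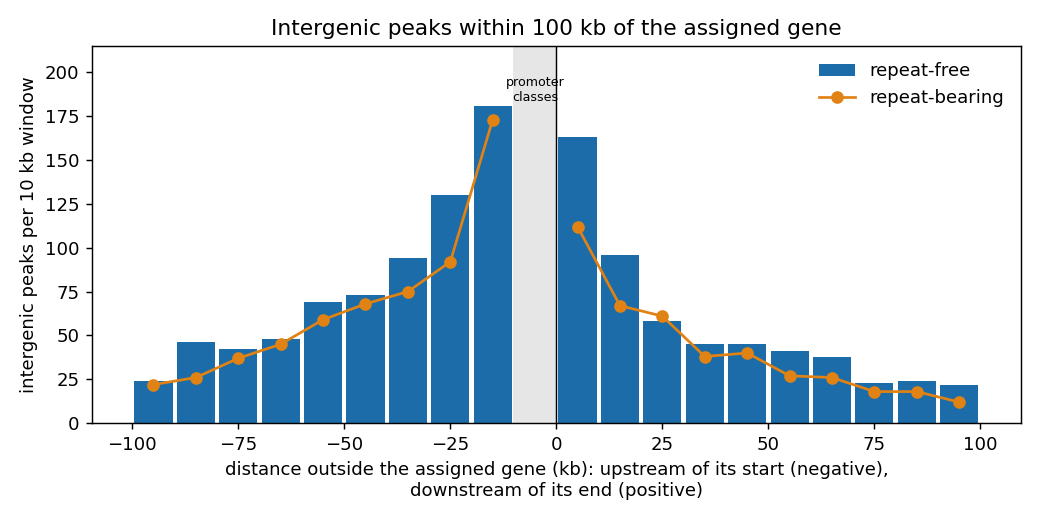
Number of intergenic peaks per 10 kb window against distance outside the assigned gene in kb, upstream as negative and downstream as positive values, for repeat-free peaks (bars) and repeat-bearing peaks (points joined by lines). The grey band marks the first 10 kb upstream, which belong to the promoter classes; from 10 to 20 kb there are 181 repeat-free peaks upstream and 96 downstream.

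The closest upstream peaks sit at the edge of the promoter window and the closest downstream ones almost touch the gene. The 5 closest upstream lay 10.02 to 10.13 kb away, with heights of 7 to 9 in Dnmt1-Dam against 1 in Dam-only. Named among them were Prxl2a, Lce1m, a gene of the epidermal barrier, Skint6, of a family expressed in skin and thymus, and C1qtnf9, a secreted C1q-like protein gene; the other has no gene name in the tables used. Downstream, H2-K2 and H2-M5 of the class I histocompatibility family had peaks 0.063 and 0.119 kb past the gene, of 7 and 10 in Dnmt1-Dam against 1 and 1 in Dam-only. The receptor gene Epha3, Gsc2, a homeobox gene, and Fsip1, a gene of the sperm fibrous sheath, had theirs at 0.133, 0.136 and 0.153 kb, with heights of 7, 8 and 8 in Dnmt1-Dam against 1 in Dam-only. All 10 of these heights are near the floor of the list. At the 100 kb limit, the 3 peaks just inside were assigned to Lpar1, Bod1l and Rpl34 (heights 7, 9 and 8 in Dnmt1-Dam against 1, 1 and 2 in Dam-only, at 99.9, 99.6 and 99.6 kb). The 3 just outside were assigned to Epb41l4a, Dhrs4 and Tcerg1l (heights 10, 19 and 8 in Dnmt1-Dam against 1, 5 and 1 in Dam-only, at 100.1, 100.3 and 100.7 kb).

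As assigned in the deposited table, upstream peaks outnumbered downstream ones in windows of equal width. The assignment followed the nearest gene start, from which a downstream peak is also separated by the gene's length. Its part in the shares below was not tested. From 10 to 100 kb there were 707 upstream and 392 downstream, an upstream share of 64.3% (61.4 to 67.2). That share was above 50% on 19 of 19 autosomes, where it ran from 54.9% to 83.7%. It was 63.4% for genes on the + strand and 65.2% for genes on the - strand. Repeat-bearing intergenic peaks of the same window had 66.0% upstream, and the repeat-free share differed from theirs by -1.71 points (-5.88 to 2.49). An upstream excess was therefore not shown to be particular to repeat-free DNA.

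The share moved with the length of the assigned gene. For genes up to 10 kb long it was 52.5% (46.2 to 58.7, 136 upstream and 123 downstream), an interval that contains 50%. It was 57.6% (51.5 to 63.5) for genes of 10 to 30 kb, 68.6% (63.3 to 73.6) for 30 to 100 kb and 79.1% (73.4 to 84.1) for genes over 100 kb. Upstream peaks of the window were assigned to genes with a median length of 43.0 kb and downstream peaks to genes of 21.5 kb. Their median distance to the gene start was 34.3 kb upstream and 70.6 kb downstream. In the deposited table all 1262 peaks were assigned to the gene with the nearest start among the genes listed, and for 1190 (94.3%) this was also the gene with the nearest edge. An alternative added after seeing the data gave each repeat-free intergenic peak to the listed gene of nearest edge instead. The window from 10 to 100 kb was then redrawn by that edge and held 1108 peaks, against 1099 as assigned. Their upstream share was 59.4% (56.4 to 62.3). Genes without a listed peak could not enter that check.

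**Figure D3:**
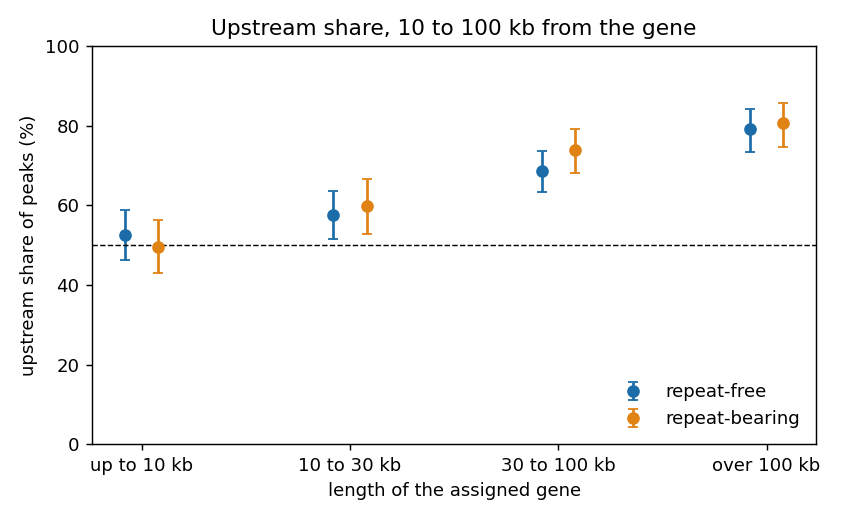
Upstream share in percent of intergenic peaks 10 to 100 kb from the assigned gene, by the length of that gene, for repeat-free peaks (blue) and repeat-bearing peaks (orange), with exact 95% intervals and a dashed line at 50%. The repeat-free share is 52.5% for genes up to 10 kb and 79.1% for genes over 100 kb.

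CpG islands or their surroundings were named at 97 of the 1262 peaks (7.69%, 6.28 to 9.30), against 6.61% of all listed peaks. The difference from all listed peaks outside the set was 1.27 points, with an interval that contains 0 (-0.205 to 2.96). Of the 97, 8 lay in an island, 52 in a shore and 37 in a shelf. The flanking share was 5.49 points higher (3.78 to 7.24) than among repeat-free intergenic peaks more than 100 kb from the gene, where it was 2.20% (24 of 1092), and it was the higher one on 16 of 19 autosomes. Against repeat-free peaks inside gene bodies (7.74%) it differed by -0.049 points (-1.83 to 1.85), and against repeat-bearing intergenic peaks within 100 kb (7.78%) by -0.089 points (-2.34 to 2.10). Within the flanks the share was 9.20% (5.24 to 14.7) up to 10 kb downstream, 8.31% (6.40 to 10.6) from 10 to 50 kb and 5.84% (3.69 to 8.70) from 50 to 100 kb, with intervals that overlap. It was 4.42% (2.59 to 6.98) from 100 to 200 kb, 0.785% (0.162 to 2.28) from 200 to 400 kb and 1.23% (0.336 to 3.12) farther out. The genome's own density of CpG islands by distance was not counted, and the shares describe the listed peaks alone.

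After the shore peaks of Bcas1 and Abo, the highest with a CpG context were at Lcn4, a lipocalin gene (24 in Dnmt1-Dam, 2 in Dam-only, shelf), Acads, a fatty acid oxidation enzyme gene (19 in Dnmt1-Dam, 1 in Dam-only, shelf) and Garnl3 (16 in Dnmt1-Dam, 1 in Dam-only, shore). The 8 peaks inside an island, named after their values were seen, were lower, from 7 to 13 in Dnmt1-Dam against 1 or 2 in Dam-only. They were assigned to Ptpn20, Gcm2, Rapgef2, Rsl24d1, Nfat5, Hoxc4, Smg1 and Cnot4. Gcm2, a parathyroid transcription factor, had 10 in Dnmt1-Dam against 1 in Dam-only at 14.7 kb upstream, and Hoxc4, a homeobox gene of body patterning, had 7 in Dnmt1-Dam against 1 in Dam-only at 54.4 kb downstream. Flanking peaks with a CpG context did not stand out by height: 8.25% reached 15 or more, against 9.10% of those without one, a difference of -0.85 points (-5.24 to 6.498).

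The Dam-only library also differed between flanks and more distant DNA, with no step shown at 100 kb. Dam-only was 1 at 74.96% of the flanking peaks and at 81.3% of repeat-free peaks beyond 100 kb, a difference of -6.36 points (-9.66 to -3.01), and the flanking share was lower on 16 of 19 autosomes. By distance, the share was 75.9% (71.2 to 80.1) from 50 to 100 kb and 77.7% (73.2 to 81.7) from 100 to 200 kb. It was 80.9% (76.6 to 84.7) from 200 to 400 kb and 86.2% (81.9 to 89.7) farther out. Dam-only heights of 5 or more were found at 3.65% of the flanking and 1.74% of the distant peaks, a difference of 1.91 points (0.587 to 3.24). Peaks of height 7, which all had a Dam-only height of 1, made up 27.1% of the flanking and 31.9% of the distant ones. Among peaks of Dnmt1-Dam height 9 or more the shares were 60.2% flanking and 68.5% distant, a difference of -8.26 points (-13.6 to -2.85). By height, the difference was -17.0 points (-25.5 to -7.94) at 11 to 14 and had intervals that contain 0 at 8, at 9 to 10 and at 15 or more. For heights of 9 or more, Dam-only was 1 at 61.7% from 50 to 100 kb and 63.7% from 100 to 200 kb. It was 65.9% from 200 to 400 kb and 77.0% farther out. Repeat-free peaks inside gene bodies had a Dam-only height of 1 at 74.0%, from which the flanks differed by 0.933 points (-2.09 to 3.88).

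**Figure D4:**
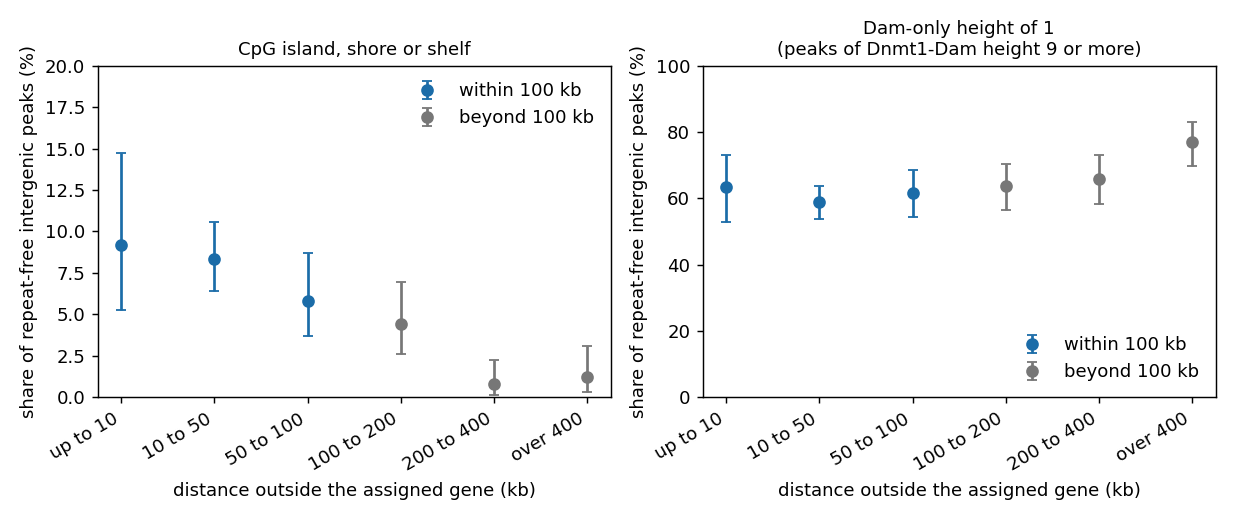
Share in percent of repeat-free intergenic peaks with a CpG island context (left) and with a Dam-only height of 1 among peaks of Dnmt1-Dam height 9 or more (right), against distance outside the assigned gene in kb, with exact 95% intervals. Blue points lie within 100 kb and grey points beyond; the left share is 8.31% at 10 to 50 kb and 0.785% at 200 to 400 kb, and the right share is 58.8% at 10 to 50 kb and 77.0% beyond 400 kb.

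For heights, ratios and CpG context, 40 differences of shares were computed over 8 measures and 5 pairs of classes. The differences by height, by CpG context among the flanking peaks, by close neighbor and of the upstream share come on top of these, and no interval is adjusted for the number computed. Of the 7 among the 40 that do not contain 0, 6 were against repeat-free peaks beyond 100 kb. The seventh was the share with a Dam-only height of 5 or more against all other listed peaks (3.65% and 2.50%, 1.15 points, 0.163 to 2.38).

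The share of intergenic peaks that carry no repeat changed little with distance. It was 55.4% (53.3 to 57.5) within 100 kb of the gene and 57.4% (55.2 to 59.6) beyond, with intervals that overlap. In gene bodies it was 66.3% (64.7 to 67.8). By side, it was 54.0% upstream and 54.2% downstream from 10 to 50 kb, and 54.8% upstream and 59.4% downstream from 50 to 100 kb.

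Close neighbors were part of the flanking set. Another listed peak of any class lay within 1 kb of 167 of the 1262 (13.2%, 11.4 to 15.2), against 11.9% of repeat-free peaks beyond 100 kb (a difference of 1.33 points, -1.38 to 4.00). Among all listed peaks the share was also 11.9% (11.3 to 12.7). Those 167 were higher: 19.8% (14.01 to 26.6) reached 15 or more, against 7.40% (5.92 to 9.11) of the 1095 with no such neighbor, a difference of 12.4 points (6.77 to 19.2). That interval treats the 167 as independent, although 139 of the 1262 sat in runs of flanking peaks no more than 1 kb apart. The same comparison of heights is not given for other classes of peaks. The heights of the 65 members that follow another within 200 bp had a Spearman's rho of 0.54 with those of the member before. Such pairs lie closer together than the 300 bp of the selected fragments. Of the 4 runs with 3 or more flanking peaks, those of Musk (7 to 9 in Dnmt1-Dam, 18.0 to 18.3 kb upstream), St8sia3 (9 to 12, 2.97 to 3.19 kb downstream) and Tinag (7 to 9, 75.2 to 75.4 kb upstream) were low, each against 1 in Dam-only. Musk is the muscle-specific kinase of the neuromuscular junction and St8sia3 a sialyltransferase gene. The Nxpe4 run was the highest.

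The flanking peaks were assigned to 1093 of the 4841 genes with any listed peak (22.6%). Most genes had 1: 949 had 1 flanking peak, 124 had 2, 16 had 3, 3 had 4 and 1 had 5. Peaks were found on both sides of 18 genes. For 604 genes (55.3%, 52.3 to 58.2) a flanking repeat-free peak was the only kind listed. A gene body peak was also listed for 206 (18.8%, 16.6 to 21.3), a proximal promoter peak for 15 (1.37%), and a repeat-bearing intergenic peak within 100 kb for 168 (15.4%). Genes with repeat-bearing peaks in their flanks had a gene body peak at 18.2% (15.7 to 20.8). Of all 4841 genes with any listed peak, 2435 (50.3%, 48.9 to 51.7) had a gene body peak. That count includes genes listed only for such a peak. For the other kinds, and for genes with a single kind, no share over all genes is given.

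Tinag, a basement membrane protein gene, had the most, with 3 upstream and 2 downstream and none of the 5 over a height of 10. Gclm, a subunit of the enzyme that makes the glutathione precursor, had 4 upstream at 24.3 to 43.1 kb, of 7 to 10 in Dnmt1-Dam against 1 in Dam-only. Prdm2, a zinc finger gene of the histone methyltransferase family, had 3 downstream and 1 upstream, of 7 to 9 in Dnmt1-Dam against 1 or 2 in Dam-only. Fancc, a DNA repair gene, had 3 upstream at 16.6 to 19.8 kb that were all high, with 15, 17 and 25 in Dnmt1-Dam against 1 in Dam-only. Scnn1g, a sodium channel subunit gene, had 3, the highest of 20 in Dnmt1-Dam against 1 in Dam-only at 22.5 kb upstream. The rule named 10 genes, which took in 6 of the 16 tied at 3 peaks; the others among these 6 were Aldh8a1, Pdha1, Cdh8 and Mtmr9. Pdha1, a pyruvate dehydrogenase subunit gene of the X chromosome, had heights of 9, 10 and 14 in Dnmt1-Dam against 1 in Dam-only, all downstream. Cdh8, a cadherin gene, had 3 downstream of 7 to 12 in Dnmt1-Dam against 1 in Dam-only.

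How often a gene had a flanking peak varied with its length. Among genes with any listed peak, 33.3% (30.2 to 36.5) of those up to 10 kb long had one, 25.3% of those of 10 to 30 kb, 20.2% of those of 30 to 100 kb and 15.8% (13.9 to 17.8) of those over 100 kb. Gene body peaks went the other way, from 11.6% for genes up to 10 kb to 77.8% for genes over 100 kb. The background for the gene lists below is this 22.6%, and the median length of all genes with a listed peak was 41.6 kb.

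Factors and receptors of the first embryonic lineages had a flanking peak at 8 of the 16 genes with any listed peak (50.0%, 24.7 to 75.3), and the median length of the 16 was 14.3 kb, against 41.6 kb for all genes with a peak. Besides Pdgfra these were Sox7, an endoderm factor (16 in Dnmt1-Dam, 1 in Dam-only, 15.6 kb upstream), and Gata3, a trophectoderm factor (15 in Dnmt1-Dam, 2 in Dam-only, 65.7 kb downstream). Otx2, Gata4, Dppa3, Fgfr2 and Zfp42 had heights of 7 to 11 in Dnmt1-Dam against 1 in Dam-only. The median Dnmt1-Dam height of the 8 was 10.5, against 9 over all flanking repeat-free peaks, and 3 of them reached 15, where the background is 8.66% of peaks. No interval was computed for these 8 peaks, and the list was chosen with earlier results of these data known. A difference in height from other flanking peaks was not tested.

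Families of developmental transcription factors (Sox, Fox, Pax, Tbx, Hox and related genes) had a flanking peak at 22 of 59 (37.3%, 25.04 to 50.9), and their median length was 7.03 kb. Sox6, Sox7 and Gata3 had the highest. The family members next in height had 12 each in Dnmt1-Dam. They were Lhx5, a forebrain factor (12.1 kb upstream), Sox9, a factor of testis and cartilage (34.0 kb downstream), Irx5, an Iroquois factor (36.9 kb downstream, in a CpG island shelf), and Lhx4, a pituitary factor (6.48 kb downstream). Dam-only was 1 at the first 3 and 2 at Lhx4. In these families 13 of 24 peaks lay downstream, against 555 of the 1262 in the whole set. Both counts include the first 10 kb downstream, which has no upstream counterpart. For all genes up to 10 kb long, 136 lay upstream and 123 downstream from 10 to 100 kb. A downstream tilt of these families beyond that of short genes was not tested.

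Secreted signals of the Wnt, Fgf, Bmp and Tgfb families had a flanking peak at 9 of 21 genes (42.9%, 21.8 to 66.0), with a median length of 26.6 kb. Wnt3 stood apart in height from the rest. Fgf18, a growth factor of bone, had 14 in Dnmt1-Dam against 2 in Dam-only at 59.6 kb downstream and 7 in Dnmt1-Dam against 1 in Dam-only at 17.2 kb. Gdf10 had 11 and 9 in Dnmt1-Dam against 1 and 2 in Dam-only, both upstream. Wnt9a, Wnt2, Wnt7b, Wnt11, Bmp4 and Fgf20 had 7 to 9 in Dnmt1-Dam against 1 in Dam-only.

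Among receptor and zinc finger families, olfactory and vomeronasal receptor genes had a flanking peak at 15 of 37 (40.5%, 24.8 to 57.9) and none inside a gene, with a median gene length of 0.945 kb. Their highest, at Olfr665, Olfr1440 and Vmn2r74, had 11 each in Dnmt1-Dam against 1 in Dam-only. Zfp zinc finger genes had a flanking peak at 22 of 67 (32.8%, 21.8 to 45.4; median length 23.2 kb), led by Zfp369 (16 in Dnmt1-Dam, 1 in Dam-only, 13.9 kb downstream). Zfp819, Zfp120 and Zfp521 had 12 each in Dnmt1-Dam against 1 in Dam-only, and Zfp385b had 12 in Dnmt1-Dam against 2 in Dam-only. Both groups are multigene families, and the sources do not say how reads from near-identical copies were placed.

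Imprinted genes had a flanking repeat-free peak at 4 of 15 (26.7%, 7.79 to 55.1), with a median length of 66.0 kb. Ppp1r9a had 16 in Dnmt1-Dam against 5 in Dam-only, 64.8 kb upstream. Ascl2, a trophoblast factor, had 11 in Dnmt1-Dam against 3 in Dam-only at 21.6 kb downstream, Htr2a 9 in Dnmt1-Dam against 2 in Dam-only and Ndn 8 in Dnmt1-Dam against 2 in Dam-only. None of the 4 had a ratio of 10 or more, where 23.4% of all listed peaks did, and none had a Dam-only height of 1, where 75.8% did. Of 10 listed genes that methylate DNA or silence retroelements, 2 had one (20%, 2.52 to 55.6), with a median length of 51.8 kb. These were the de novo methyltransferase gene Dnmt3a (10 in Dnmt1-Dam, 2 in Dam-only, 15.6 kb upstream) and Mbd2, a methyl-CpG binding protein gene (7 in Dnmt1-Dam, 1 in Dam-only).

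Of the genes for neuronal adhesion and the synapse, 5 of 33 had a flanking peak (15.2%, 5.11 to 31.9), while 29 of the 33 had one inside the body. Their median length was 938 kb, and 77.8% of all genes over 100 kb with a listed peak had one inside the body. All 5 of the flanking peaks were upstream, where the upstream share for genes over 100 kb was 79.1% from 10 to 100 kb. The highest was at Cntn6, a contactin (11 in Dnmt1-Dam, 1 in Dam-only), followed by Dab1, of the reelin pathway, and Csmd1 (9 each in Dnmt1-Dam, 1 in Dam-only). Of 4 housekeeping genes with any peak (median length 15.2 kb), Ywhaz, a 14-3-3 protein gene, had a flanking one, of 7 in Dnmt1-Dam against 1 in Dam-only. The part of gene length in these counts was not tested list by list.

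**Figure D5:**
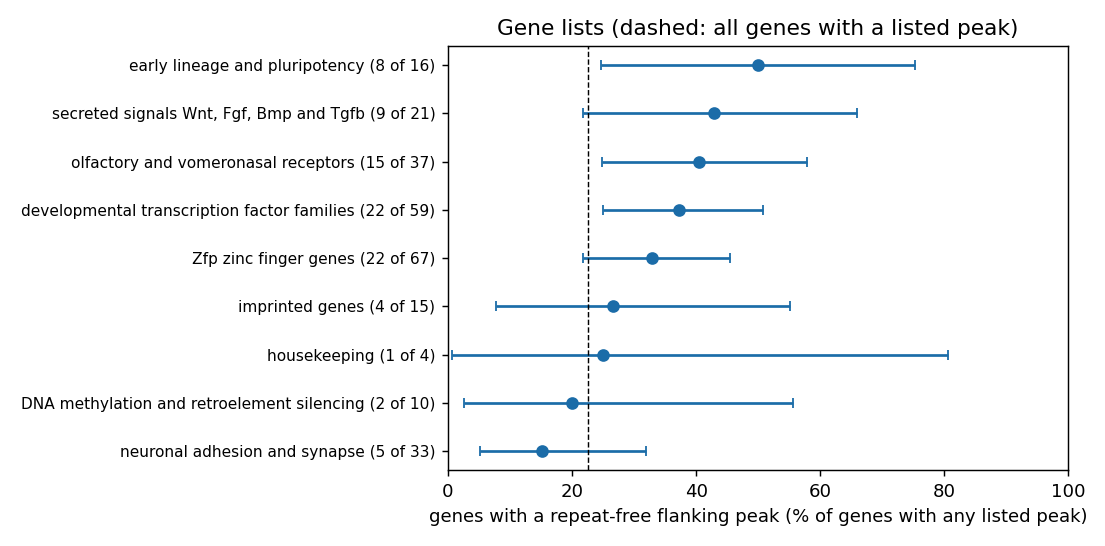
Genes with a repeat-free intergenic peak within 100 kb as a percentage of the genes with any listed peak, for 9 gene lists, with exact 95% intervals and the counts in brackets. The dashed line is the share over all 4841 genes with a listed peak, 22.6%; the lists run from 50.0% (8 of 16) to 15.2% (5 of 33).

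By chromosome, flanking repeat-free peaks made up a similar part of the listed peaks. The 95% intervals of 19 of 21 chromosomes contained the overall 15.3%, and those of chromosomes 11 (58 of 506, 11.5%, 8.82 to 14.6) and 12 (39 of 349, 11.2%, 8.07 to 15.0) lay below it. The highest share was on chromosome 19 (42 of 214, 19.6%, 14.5 to 25.6). The X chromosome had 27 of 197 (13.7%, 9.23 to 19.3), and 1 Y-linked peak was listed, which was not in this set. Median heights by chromosome ran from 8 to 10.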

How the data were processed

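Per the labels' protocols, embryo DNA was end-repaired, ligated to adapters, PCR-amplified (15 cycles) and selected for fragments near 300 bp. CASAVA, BWA and the build mm9 are named per the submitters' processing notes. The peak caller and scaling were not given in the sources used here. In the deposited table the authors gave a whole-number signal height per peak and library, and every listed peak is higher in Dnmt1-Dam. Heights were not treated as counts, and no test between the libraries was possible. Distance was measured from the peak position to the nearer edge of the assigned gene, and side was taken from the strand. Symbols come from a RefSeq table of GRCm38.p6, and 1255 of 1262 peaks were matched by accession, gene ID or symbol. Differences of shares have Newcombe intervals from statsmodels 0.14.6, and exact intervals come from scipy 1.17.1. The steps were tested on simulated data. The members and gene lists were chosen with earlier results of these data known. Named were the 10 highest peaks per side, the 10 genes with most peaks, the 5 closest per side, the 5 highest with CpG context, the 3 highest per list and 3 on either side of the limit. 1 of the named upstream peaks is not reported here.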

Additional observations from a re-analysis of the deposited data

How the results depend on the processing

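Of 79 recalculated values of 10 results, 62 counted as unchanged. For medians and most shares this meant a value within the main interval. For the upstream shares it meant an interval still above 50%. The number of genes has no interval. It counted as unchanged within a set factor, which took in 789 to 1349 genes against 1093 in the main setting. With Dnmt1-Dam height 9 or more, the median height was 11, the share of 15 or more 16.6%, the share at a Dam-only height of 1 60.2%, the median log2 ratio (pseudocount 1, otherwise 2.17) 2.32 and the assigned genes 628. With height 15 or more, these peaks had a Dam-only height of 1 at 55.3%, a log2 ratio of 3.09, 105 genes and 72.0% within 50 kb. The shifts in height, ratio and gene number follow from selecting by height. A limit of 50 kb took in 10.8% of all peaks and 200 kb took in 20.02%, by construction. Peaks at a Dam-only height of 1 had a median height of 8, and 6.66% reached 15. The log2 ratio was 2.50 with a pseudocount of 0.5, 0.71 with 10 and 0.035 after scaling to the sums over all peaks. That scaling makes the sums of both libraries over the listed peaks equal, so its low value follows by construction. It is no correction for depth. The upstream share from 10 to 100 kb no longer differed from 50% for genes up to 10 kb (52.5%); this, the 79.1% for genes over 100 kb and the assignment by nearest edge were added after seeing the data. No paired analysis was possible because each group is 1 library. Unknown depth limits what single heights of 7 to 9 can show.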
